A study of Mus musculus with 10 samples.

Results

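The genes described here carry out the processing of protein fragments and their display on major histocompatibility complex (MHC) molecules. They are the 10 genes B2m, Tap1, Tap2, Tapbp, Nlrc5, Ciita, Cd74, H2-Aa, H2-Ab1 and H2-DMa, taken by exact gene symbol from a list named for the pathway, out of 19938 genes measured under a single symbol. All 10 were measured. The first 5 serve class I and the last 5 serve class II. Where a gene had several probe sets, its brightest on average was used, a probe set being the group of short probes that reports a transcript or a part of it.

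The study set 5 mouse papillary thyroid carcinomas (PTC) against 5 anaplastic thyroid carcinomas (ATC), with 1 expression array per tumour. PTC tumours carried TPOCreER and BrafV600E, that is, an inducible Cre recombinase under the thyroid peroxidase promoter together with the mutant Braf allele. ATC tumours carried TPOCreER and BrafV600E and were p53 -/-, so histology and p53 genotype changed together and cannot be told apart. All mice were on a mixed C57BL/6;129SvJae background; the labels give neither age nor treatment, and they do not say whether each tumour came from a separate animal, so the p-values measure only the spread between these tumours. The question addressed is whether the 2 arms of antigen presentation differ between the tumour types and from each other.

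MHC class I molecules stand on nearly all nucleated cells and show peptides from proteins made inside the cell to CD8 T cells. The proteasome cuts the proteins, the TAP transporter moves the peptides into the endoplasmic reticulum, and a loading complex places them on a heavy chain paired with beta-2 microglobulin. MHC class II molecules are made mainly by dendritic cells, B cells and macrophages, although interferon-gamma can induce them in epithelial cells, thyrocytes included. They carry peptides from endosomes to CD4 T cells, and each arm has its own transactivator, NLRC5 for class I and CIITA for class II.

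The promoters of these genes are shown as a description, and because Tap1 shares its upstream region with a neighbour. Any part of them in how the members varied was not tested, and H2-Aa is the only class II member printed. RefSeq promoter windows of assembly GRCm38.p6, from 250 bases before to 50 after each start, matched 5 of the 10 members (B2m, Tap1, Tapbp, H2-Aa and H2-DMa) in 6 windows. The sequences below are given 5′ to 3′ on the gene's strand, end at the base before the start, and have motif matches in capitals.
B2m, chr2:122147487-122147686, plus strand: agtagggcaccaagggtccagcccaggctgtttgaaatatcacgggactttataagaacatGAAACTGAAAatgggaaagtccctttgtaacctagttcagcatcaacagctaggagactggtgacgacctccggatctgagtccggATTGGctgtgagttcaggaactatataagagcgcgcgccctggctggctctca
Tap1, chr17:34187331-34187555, plus strand: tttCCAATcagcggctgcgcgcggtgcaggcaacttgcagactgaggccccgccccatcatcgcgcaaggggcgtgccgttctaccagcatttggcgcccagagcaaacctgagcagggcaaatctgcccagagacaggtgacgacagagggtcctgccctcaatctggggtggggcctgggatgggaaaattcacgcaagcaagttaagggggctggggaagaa
Tapbp, chr17:33919278-33919477, plus strand: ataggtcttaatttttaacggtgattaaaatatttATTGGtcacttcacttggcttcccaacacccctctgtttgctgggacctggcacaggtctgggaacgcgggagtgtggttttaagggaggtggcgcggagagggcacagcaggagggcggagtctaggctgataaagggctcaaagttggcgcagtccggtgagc
H2-Aa, chr17:34287824-34288023, minus strand: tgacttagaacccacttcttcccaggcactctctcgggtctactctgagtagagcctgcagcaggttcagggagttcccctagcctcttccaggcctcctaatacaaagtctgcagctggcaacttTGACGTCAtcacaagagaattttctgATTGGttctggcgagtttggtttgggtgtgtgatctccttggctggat

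The motifs were searched on both strands of the 250 bases before the start, in members and in all 32851 windows of the table. They were the Y box CCAAT (held by 33.8% of all windows), the X1 core GCAACNG (10.2%), the X2 forms TGACGTNA (2.52%) and TGACGCNA (1.54%), the interferon-stimulated response element (2.98%) and the gamma-activated site TTCNNNGAA (7.02%). The H2-Aa window held an X2 match beginning 74 bases before the start and a Y box match beginning 48 bases before it. The B2m window held a response element match at 139 bases and a Y box match at 53 bases before the start. Y box matches also lay at 222 bases in Tap1, at 248 and 165 bases in Tapbp (the first outside the printed stretch) and at 198 bases in 1 of the 2 H2-DMa windows. The printed Tap1 stretch is the whole of the 225 bases between its start and that of Psmb9, an immunoproteasome subunit gene that runs the opposite way. The X1 core and the gamma-activated site had 0 matches in the windows of all 5 matched members. The H2-Aa stretch reads gcaactt directly before its X2 match, which departs from the searched X1 core only at the last base. The Tap1 stretch holds the same letters without an X2 match. Lack of an exact match therefore does not show that an X1 box is absent. A match describes letters in a window and is not a measured binding site.

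All values below are log2 probe set intensities as deposited, differences are ATC minus PTC, and errors of group means are SDs (n = 5 in each group). Calls are from limma with Benjamini-Hochberg adjustment over all 19938 genes at a threshold of 0.05. Levels of different genes are not compared, because probe sets differ in brightness. Array medians ran from 7.3098 to 7.343 in PTC and from 7.255 to 7.3093 in ATC, so every ATC median lay below every PTC median. ATC replicate 5 had the widest spread of values (quartiles 6.02 and 8.72) and the lowest array weight, 0.38. Of the 14 thyroid follicular markers 13 were measured; 5 fell in ATC and 8 did not pass, and the mean over the list ran from 7.91 to 8.93 in PTC and from 6.74 to 8.09 in ATC, ATC replicate 2 being the highest of the ATC tumours. Thyroglobulin, Tg, ranged from 6.84 to 12.001 in ATC, the low end being replicates 1 (7.17) and 3, and it did not pass (limma adjusted p = 0.0583).

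Every member had a lower mean in ATC than in PTC, but few of the differences passed the threshold after adjustment over all genes. Tap1 and Tapbp were called lower, 0 members were called higher, and the other 8 did not pass. That is 2 of 10 members in all, and 2 of 10 in the downward direction. Of all genes, 21.2% were called in either direction, 9.72% downward and 11.5% upward. The share of members called in either direction, 20.0%, is near the background and is therefore not a result about these genes. The median difference was −0.33 over the 10 members against −0.018 over all genes, of which 53.8% had a negative difference.

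**Figure D1:**
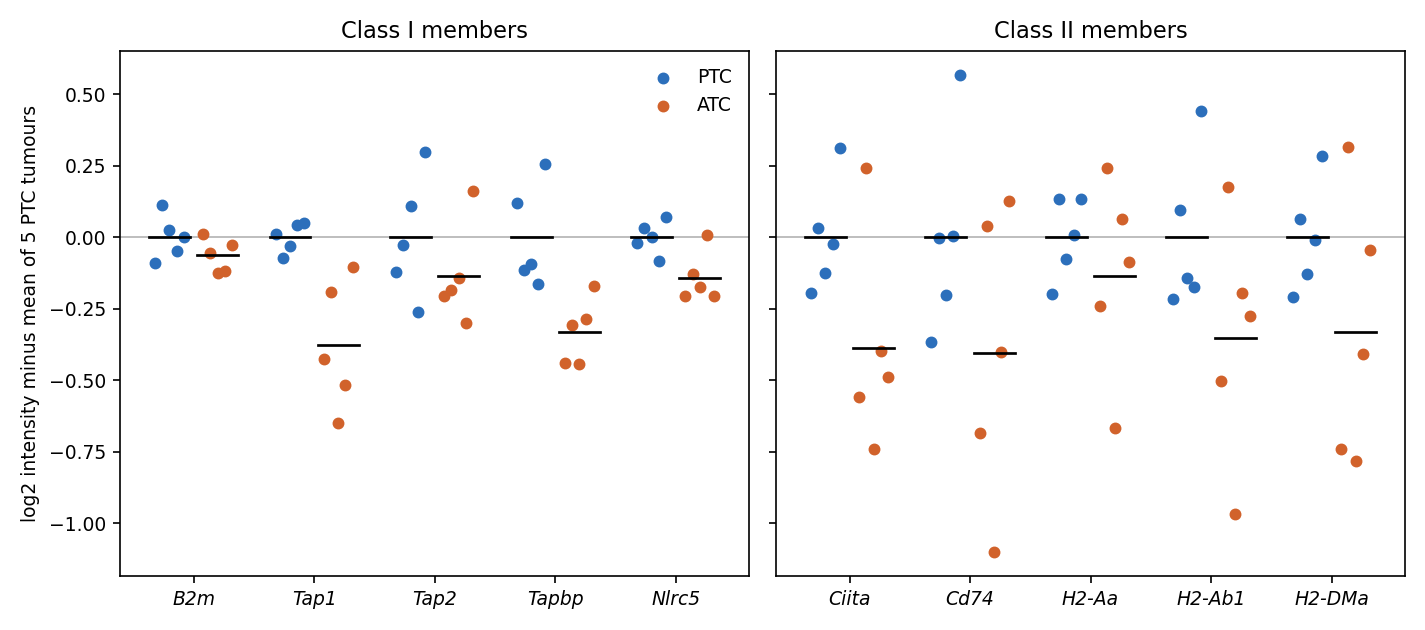
Log2 intensity of each member in each of the 10 tumours, less the mean of that gene over the 5 PTC tumours, for class I (left) and class II (right). Points are tumours (PTC blue, ATC orange, replicate 1 to 5 from left to right within a group) and black bars are group means; the groups are separate for Tap1 and Tapbp and overlap for the other 8 genes.

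Among the peptide transporter genes, Tap1 fell and Tap2 did not pass. Tap1 encodes a subunit of the pump that carries peptides into the endoplasmic reticulum (probe set 10444244). It was at 7.79, 7.71, 7.75, 7.82 and 7.83 in PTC replicates 1 to 5 and at 7.36, 7.59, 7.13, 7.26 and 7.68 in ATC replicates 1 to 5. All ATC tumours lay below all PTC tumours, and they were spread more widely, with an SD of 0.23 against 0.051 in PTC. The difference was −0.38 (SE 0.10, 95% interval −0.60 to −0.15), a 1.3-fold fall (limma adjusted p = 0.0219). The call ended without PTC replicate 4 (−0.37, adjusted p = 0.0522).

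Tap2, the partner subunit, was at 7.19, 7.29, 7.43, 7.05 and 7.61 in PTC and at 7.11, 7.13, 7.17, 7.01 and 7.48 in ATC (probe set 10444268). The groups overlapped, and only ATC replicate 4 was below every PTC tumour. The difference of −0.13 had a 95% interval of −0.39 to 0.12 (limma adjusted p = 0.476). A fall in Tap2 as large as that measured for Tap1 therefore lies within its interval.

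Tapbp, which encodes tapasin, the protein that bridges the transporter to the empty class I molecule, also fell (probe set 10444068). Its values were 8.43, 8.19, 8.21, 8.14 and 8.56 in PTC and 7.87, 7.999, 7.86, 8.02 and 8.14 in ATC. The groups were separate, but by a narrow margin: the highest ATC tumour, replicate 5 at 8.136, lay just under the lowest PTC tumour, replicate 4 at 8.142. The difference was −0.33 (SE 0.095, 95% interval −0.54 to −0.12, limma adjusted p = 0.0299). Leaving out any 1 of PTC replicates 1 and 5 and ATC replicates 1 and 3 ended this call (differences from −0.30 to −0.27, adjusted p from 0.0587 to 0.0728). Tap1 and Tapbp were the 2 members with separate groups; of all genes, 16.9% had separate groups, 7.74% with ATC below and 9.13% with ATC above.

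B2m encodes beta-2 microglobulin, the light chain that every class I molecule needs (probe set 10475414). It was at 12.61, 12.81, 12.73, 12.66 and 12.70 in PTC and at 12.71, 12.65, 12.58, 12.58 and 12.68 in ATC. The groups overlapped, and all 10 tumours lay between 12.58 and 12.81. The difference was −0.064 with a 95% interval of −0.20 to 0.076 (limma adjusted p = 0.543). It was −0.14 with quantile normalization once more (adjusted p = 0.131) and −0.024 with arrays centred on the median (adjusted p = 0.859).

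Nlrc5, the transactivator of class I genes, was at 9.53, 9.58, 9.55, 9.46 and 9.62 in PTC and at 9.34, 9.42, 9.37, 9.55 and 9.34 in ATC (probe set 10574100). ATC replicates 1, 2, 3 and 5 were below every PTC tumour, whereas replicate 4 lay inside the PTC range. The difference was −0.14 (95% interval −0.28 to 0.0026, limma adjusted p = 0.161). The table split this gene over 19 probe sets, with means from 4.88 to 9.48, each read on its own. Differences were negative in 17 and positive in 2, from −0.30 to 0.071, and 3 of the 19 passed when all probe sets were tested, all of them lower in ATC. The rule kept the brightest, which was not among those 3. Probe sets of 1 gene are not replicates.

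The class II members had a median difference of −0.35, against −0.14 in class I, and ATC SDs of 0.35 to 0.51, and 0 of 5 passed. Leaving out ATC replicate 3 moved the class II median to −0.22, and leaving out ATC replicate 2 moved it to −0.49. Of these 5, only Ciita had an unadjusted limma p under 0.05. Ciita encodes the transactivator on which class II transcription depends (probe set 10433507). It was at 7.99, 8.21, 8.06, 8.16 and 8.49 in PTC and at 7.62, 8.42, 7.44, 7.78 and 7.69 in ATC. Every ATC tumour except replicate 2 was below all PTC tumours, and replicate 2 was above all PTC tumours except replicate 5. The difference was −0.39 (95% interval −0.75 to −0.022, limma adjusted p = 0.130). Without ATC replicate 2 it was −0.55 and passed (adjusted p = 0.00692).

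Cd74 encodes the invariant chain, which guides class II molecules to endosomes and keeps their groove closed on the way (probe set 10456005). Its values were 11.05, 11.42, 11.22, 11.42 and 11.99 in PTC and 10.74, 11.46, 10.32, 11.02 and 11.55 in ATC. ATC replicates 2 and 5 lay above 4 of the PTC tumours, and ATC replicate 3 was lowest by a wide margin. The difference was −0.40 (SE 0.24, 95% interval −0.93 to 0.12, limma adjusted p = 0.278), with the largest SE of the 10. It was −0.23 without ATC replicate 3, −0.26 without PTC replicate 5 and −0.54 without ATC replicate 5 (limma adjusted p = 0.149).

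The chains of the class II molecule I-A are encoded by H2-Aa (alpha, probe set 10450154) and H2-Ab1 (beta, probe set 10444291). H2-Aa was at 12.06, 12.39, 12.18, 12.26 and 12.39 in PTC and at 12.02, 12.498, 11.59, 12.32 and 12.17 in ATC. ATC replicate 2 held the highest value of all 10 tumours and ATC replicate 3 the lowest. The difference was −0.14 (95% interval −0.47 to 0.19, limma adjusted p = 0.582), and it was −0.0047 without ATC replicate 3. H2-Ab1 was at 11.71, 12.02, 11.79, 11.75 and 12.37 in PTC and at 11.43, 12.10, 10.96, 11.73 and 11.65 in ATC. Its order in ATC had the same tumours at the top and the bottom. The difference was −0.35 (95% interval −0.78 to 0.076, limma adjusted p = 0.243), and it was −0.20 without ATC replicate 3. Over all fits with an array left out, it ran from −0.49 to −0.20 (lowest adjusted p = 0.0827).

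H2-DMa encodes the alpha chain of the DM molecule, which swaps the invariant chain fragment for antigenic peptide in the endosome (probe set 10444229). It was at 9.92, 10.19, 10.001, 10.12 and 10.42 in PTC and at 9.39, 10.45, 9.35, 9.72 and 10.09 in ATC. ATC replicate 2 exceeded every PTC tumour, and ATC replicates 1, 3 and 4 were below every PTC tumour. The difference was −0.33 (95% interval −0.76 to 0.10, limma adjusted p = 0.279), and it was −0.22 without ATC replicate 3. Over all fits with an array left out, it ran from −0.49 to −0.22. The lowest adjusted p of these fits was 0.0504, just short of the threshold.

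**Figure D2:**
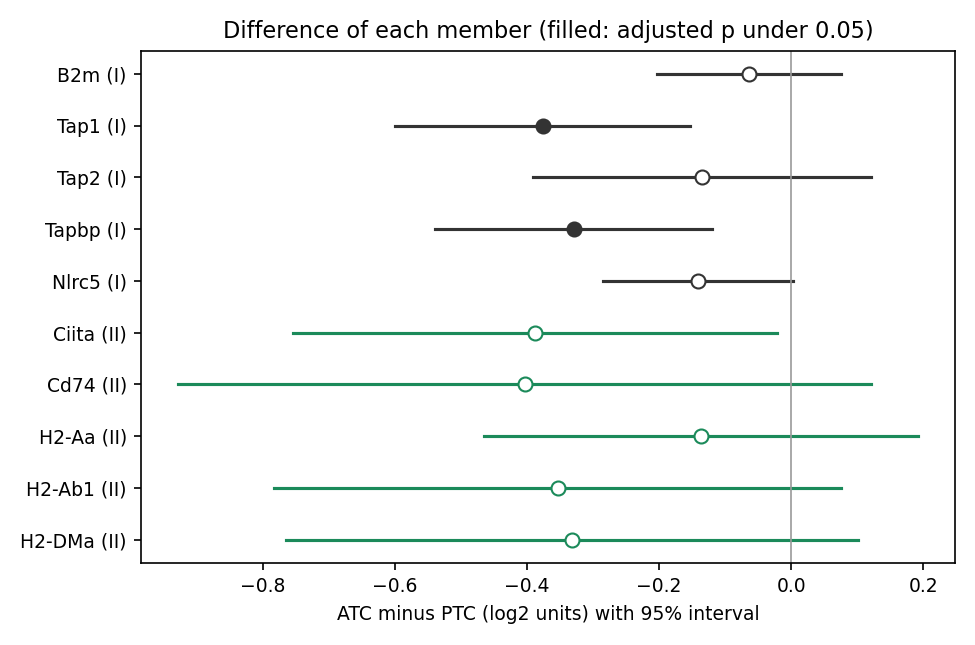
Difference ATC minus PTC of each member in log2 units, with its 95% interval from the limma fit; class I in grey and class II in green, filled where the adjusted p was under 0.05. The intervals of Tap1, Tapbp and Ciita lie below 0, and those of Tap1 and Tapbp alone passed after adjustment over all genes.

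To set the arms side by side, each gene's value was taken relative to its mean over the PTC tumours and averaged over the 5 members of its class in each tumour. No test is given for these averages, because the members were chosen as a list. Class I averaged −0.021, −0.014, 0.0030, −0.10 and 0.13 in PTC replicates 1 to 5 and −0.25, −0.17, −0.31, −0.24 and −0.069 in ATC replicates 1 to 5. ATC replicate 5 was the only ATC tumour inside the PTC range. Class II averaged −0.24, 0.064, −0.13, −0.040 and 0.35 in PTC and −0.55, 0.20, −0.85, −0.27 and −0.15 in ATC. Here ATC replicates 2 and 5 lay inside the PTC range, and replicates 1, 3 and 4 below it.

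The ATC mean was −0.21 ± 0.091 for class I and −0.32 ± 0.40 for class II. Class II minus class I was −0.22, 0.078, −0.14, 0.063 and 0.21 in PTC and −0.29, 0.38, −0.54, −0.025 and −0.084 in ATC. The ATC mean of this contrast, −0.11 ± 0.34, was small beside its own spread, and ATC values lay on both sides of the PTC range. It rested on single tumours: the difference between groups was −0.0063 without ATC replicate 3, −0.24 without ATC replicate 2, −0.060 without PTC replicate 5, −0.069 without ATC replicate 1 and −0.029 with array weights. So no shift of class II relative to class I was resolved between the tumour types with 5 tumours in each. The SDs of the averages were 0.40 in class II and 0.091 in class I among ATC tumours, and 0.22 and 0.086 among PTC tumours. These SDs are a description, and an average over genes that vary together keeps more of their spread than an average over genes that do not.

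**Figure D3:**
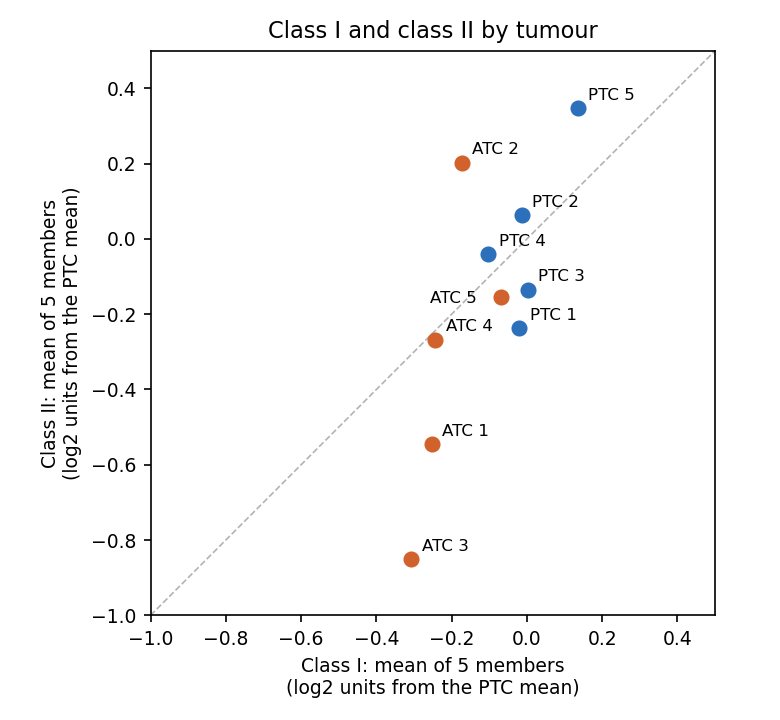
Mean of the 5 class II members (vertical) against the mean of the 5 class I members (horizontal) in each tumour, in log2 units from the PTC mean; the dashed line marks equal values. ATC replicates 1 and 3 sit low on the class II axis, at −0.55 and −0.85, and ATC replicate 2 sits above the line at 0.20 for class II and −0.17 for class I.

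The class II members varied together from tumour to tumour. In PTC, replicate 5 was highest and replicate 1 lowest for 5 of 5 class II genes. In ATC, replicate 3 was lowest for 5 of 5, and replicate 2 was highest for 4 of 5, the exception being Cd74, which was highest in replicate 5. The class I members were less uniform: ATC replicate 3 was lowest for 3 of 5 and replicate 5 highest for 3 of 5. As a measure of likeness, Pearson's r was taken over the 10 tumours after centring each gene within its group, so that the difference between tumour types did not enter. It ran from 0.76 to 0.93 over the 10 pairs of class II members (median 0.88), from −0.27 to 0.61 over the 10 pairs of class I members (median 0.29) and from 0.058 to 0.80 over the 25 mixed pairs (median 0.35). These values describe the same 10 arrays. The r of all gene pairs was not computed, so the likeness is not shown to be particular to class II. B2m and Nlrc5 had SDs within groups of only 0.057 to 0.089, and how far that lowers their r was not tested.

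Tap1 was the class I member that varied most like class II, with r = 0.80 to Cd74 and 0.77 to H2-DMa. Over all genes, those most like Cd74 by the same measure were Mical1 (0.97), Shroom2 (0.97), Mettl7a1 (0.96), Shroom4 (0.96) and Sel1l (0.96). Those most like B2m were Olfr1300-ps1 (0.96), Abhd12 (0.93), Osbpl9 (0.93), Vps41 (0.92) and Nlrc4 (0.91). These are the top 5 of 19938 genes in each case, given as a description. The highest r of Cd74 to another member was lower, 0.90 to H2-DMa. Of the 10 members, 7 had the larger SD in ATC, against 68.6% of all genes.

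The wider pathway was read from lists of genes by role, described by counts and medians. For comparison with every count below, 9.72% of all genes were called lower and 11.5% higher. No count was tested against these shares, because the lists were chosen. Class I heavy chains and class I-like molecules were measured for 9 of 19 listed genes; the classical H2-K1 and H2-D1 share probe sets with other genes and are not analysed here. Of the 9, 4 fell, 0 rose and 5 did not pass (median −0.17). Mr1, which presents vitamin metabolites to mucosal-associated invariant T cells, was at 10.30, 10.71, 10.52, 10.35 and 10.38 in PTC and at 9.49, 9.91, 9.82, 10.16 and 9.95 in ATC. The groups were separate (difference −0.59, SE 0.12, limma adjusted p = 0.00610). H2-M2 fell by 1.78 (SE 0.36, adjusted p = 0.00527), H2-Q4 by 0.68 and H2-Q2 by 0.42. These H2 genes belong to families of close copies, and their probe sets were not checked for signal from the others.

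In the list of class I peptide supply and loading, 4 of 11 measured genes fell, 0 rose and 7 did not pass (median −0.22). Tapbpl, which encodes TAPBPR, a tapasin relative that edits class I peptides, fell from 8.35 ± 0.095 to 7.88 ± 0.11 (difference −0.47, SE 0.076, limma adjusted p = 0.00159). Its call stood in all 10 fits that left out an array, unlike that of Tapbp. Psme1, a subunit of the proteasome activator PA28, fell by 0.39 (adjusted p = 0.0267), the immunoproteasome gene Psmb9 by 0.43 (adjusted p = 0.0345) and the chaperone gene Calr by 0.42 (adjusted p = 0.0389). Psmb8 differed by −0.32 (adjusted p = 0.232).

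These last calls were close to the threshold. Psme1 no longer passed when any 1 of PTC replicates 3, 4 and 5 and ATC replicates 1 and 3 was left out (−0.39 to −0.31, limma adjusted p from 0.0547 to 0.0613). Psmb9 no longer passed when any 1 of PTC replicates 2, 3, 4 and 5 and ATC replicates 1, 3 and 4 was left out (−0.46 to −0.37, adjusted p from 0.0531 to 0.0829) and with arrays centred on the median (−0.39, adjusted p = 0.0531). For Calr the same held for each PTC array except replicate 3 and for ATC replicates 1 and 4 (−0.45 to −0.31, adjusted p from 0.0530 to 0.0856), and with arrays centred on the median (−0.38, adjusted p = 0.0590).

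In gene order, Psmb9, Tap1, Psmb8 and Tap2 are consecutive between the H2-DM genes and H2-Ob. Their differences were −0.43, −0.38, −0.32 and −0.13, and the Psmb9 and Tap1 starts face each other across the sequence printed for Tap1. Of 28 measured genes in the 39 positions from Tapbp to H2-Ea, 5 were called lower and 2 higher, with a median of −0.11. Of all genes, 9.72% were called lower and 11.5% higher, so these counts are not read as a result about the stretch. The stretch was chosen after its values were seen. Its genes of other function went both ways, with Wdr46, a ribosome biogenesis factor, at 0.38 and H2-Ke6, a steroid dehydrogenase gene, at −0.64.

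The remaining genes on the list of class II chains also had negative differences, among them H2-Ea, which is annotated as a transcribed pseudogene. Of 5 measured, 0 passed (0 rose and 2 were lower at an unadjusted p under 0.05), with a median of −0.20. H2-Ob, a chain of the DM inhibitor DO, differed by −0.46 (limma adjusted p = 0.0908). H2-Eb1 averaged 11.10 ± 0.36 in PTC, against 10.98 ± 0.58 in ATC, a difference of −0.12 (adjusted p = 0.805), and H2-Oa and H2-Ea differed by −0.20 and −0.26. H2-Eb1 turned positive without ATC replicate 3 (0.070), and H2-Ea without PTC replicate 4 (0.021).

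Most genes of endosomal antigen processing that passed rose. Of 10 measured, 5 rose, 1 fell and 4 did not pass (median 0.29). Lgmn, the asparaginyl endopeptidase that cuts antigen and invariant chain, was at 10.34, 10.30, 10.09, 10.40 and 10.18 in PTC and at 12.15, 11.67, 11.51, 11.97 and 12.26 in ATC. The groups were far apart (difference 1.65, SE 0.14, 3.14-fold, limma adjusted p = 4.79e-05). Ctsl, a cathepsin, rose by 0.66 (adjusted p = 0.00295), Ctsz by 0.62 (adjusted p = 0.00219) and Ifi30, the lysosomal thiol reductase that opens disulphide bonds of antigen, by 0.54 (adjusted p = 0.00201). Ctss, the cathepsin that trims invariant chain, differed by 0.18 (adjusted p = 0.102).

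Marchf1, the ubiquitin ligase that removes class II and CD86 from the surface of antigen-presenting cells, rose by 0.41 (limma adjusted p = 0.0219). Its call ended without PTC replicate 1, 3 or 5 (0.37 to 0.39, adjusted p from 0.0503 to 0.0545). Ctsh, another cathepsin, fell by 0.54 (adjusted p = 0.0230), and that call ended without PTC replicate 3 (−0.54, adjusted p = 0.0506) or ATC replicate 1 (−0.50, adjusted p = 0.0547). Ctsb and Ctsd, the other cathepsin genes of the list, did not pass (0.035 and −0.14).

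**Figure D4:**
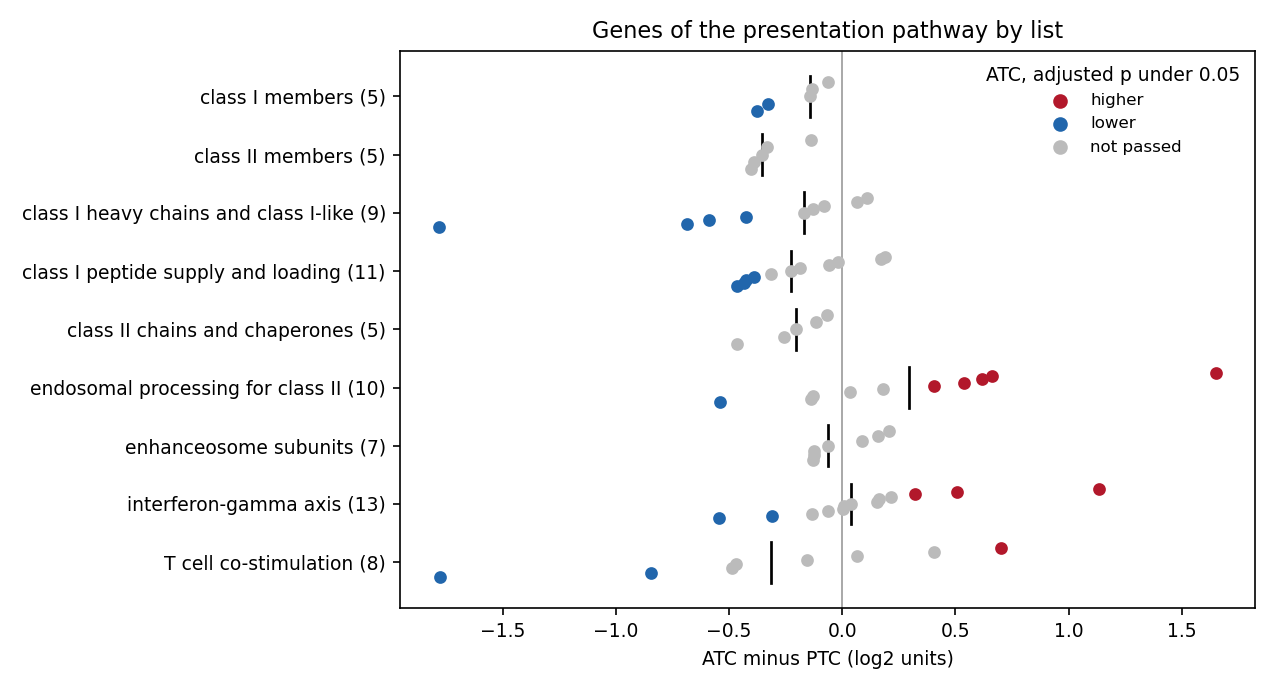
Difference ATC minus PTC in log2 units of every measured gene of the presentation pathway, by list, with the number measured in brackets; red and blue points passed as higher and lower, grey points did not pass, and the black line is the median. Endosomal processing has 5 genes up, with Lgmn at 1.65, whereas the points of the 2 class II lists are all grey and below 0.

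Among factors that act on MHC promoters, the enhanceosome genes, Ciita and the kept Nlrc5 probe set did not pass. This does not show that they were unchanged. In the enhanceosome, the RFX, CREB and NF-Y proteins known to bind the X and Y boxes of MHC promoters, 0 of 7 genes passed in limma, also at an unadjusted p under 0.05 (median −0.063). Rfx5 differed by −0.13 (adjusted p = 0.426). Nfyb differed by 0.21 (adjusted p = 0.155), and every ATC tumour lay above every PTC tumour, though narrowly. Ifng, which encodes interferon-gamma, the main inducer of both arms, averaged 6.77 ± 0.047 in PTC, against 6.78 ± 0.068 in ATC (adjusted p = 0.947), and its target Irf1 differed by 0.0048 (adjusted p = 0.980).

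Over the whole interferon-gamma list, which holds the cytokine, its receptor, kinases, targets and regulators, 3 of 13 measured genes rose, 2 fell and 8 did not pass (median 0.039). Of all genes, 11.5% rose and 9.72% fell, and with 13 genes these counts are not read as a result about the list. The receptor chain gene Ifngr2 rose by 0.51 (limma adjusted p = 0.00171), the myeloid factor gene Irf8 by 0.32 (adjusted p = 0.0190) and the chemokine gene Cxcl10 by 1.13 (adjusted p = 0.0155). The kinase genes Jak1 and Jak2, which relay the signal, fell by 0.31 (adjusted p = 0.00672) and 0.54 (adjusted p = 0.00313).

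Of 8 genes for molecules that accompany MHC at the T cell contact, 1 rose, 2 fell and 5 did not pass (median −0.31). Icam1, an adhesion molecule, was at 9.31, 9.49, 9.64, 9.40 and 9.69 in PTC and at 7.16, 8.45, 7.33, 7.90 and 7.80 in ATC. The groups were separate, with ATC replicate 2 again nearest to PTC (difference −1.78, SE 0.21, limma adjusted p = 0.000288). Pdcd1lg2, which encodes the inhibitory ligand PD-L2, fell by 0.84 (adjusted p = 0.00504). Cd86, a co-stimulatory ligand, rose by 0.70 (adjusted p = 0.0256), a call lost when any 1 of PTC replicates 1, 4 and 5 and ATC replicates 1, 2 and 5 was left out (0.57 to 0.70, adjusted p from 0.0505 to 0.0607).

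Class II transcripts in a tumour piece come from whichever cells make them, and in bulk samples fewer cells of a type and less RNA per cell cannot be told apart. Markers of several cell types moved with the tumour type; of all genes, 9.72% were called lower and 11.5% higher. All 14 macrophage markers rose, the list mean running from 8.87 to 9.48 in PTC and from 10.71 to 11.36 in ATC. Of 13 dendritic cell markers 3 fell (Itgax, Clec9a and Cd209a), 1 rose (Fscn1) and 9 did not pass, with list means of 7.81 to 7.97 in PTC and 7.29 to 7.81 in ATC. Of 9 measured B cell markers 4 fell and 5 did not pass, with means of 6.87 to 7.94 in PTC and 6.28 to 6.76 in ATC. Of 11 T and NK cell markers 5 fell and 6 did not pass (6.81 to 7.17 and 6.45 to 6.82). The 5 pan-leukocyte markers did not pass; 2 of them were higher at an unadjusted p under 0.05 (10.46 to 10.89 in PTC and 10.57 to 11.18 in ATC). Epithelial markers fell in 6 of 8 (10.51 to 10.71 and 8.16 to 9.77). Parathyroid (3 measured) and skeletal muscle markers (6) did not pass and varied widely, from 6.17 to 10.48 and from 6.82 to 9.34 in PTC and from 5.98 to 9.44 and from 7.22 to 8.70 in ATC; of 7 fibroblast markers 2 fell (9.60 to 9.78 and 9.02 to 9.91). Without detection calls, a dim marker cannot be told from background. By mean level, Ncr1 lay at percentile 10.9 of all genes and Ms4a1 at percentile 18.0.

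Tumour by tumour, the class II order in ATC (replicates 2, 5, 4, 1 and 3 from high to low) shared its ends with some of these lists. ATC replicate 2 was highest for class II and also for pan-leukocyte (11.18), dendritic cell (7.81), B cell (6.76), T and NK cell (6.82), epithelial (9.77), thyroid follicular (8.09) and parathyroid markers (9.44). ATC replicate 3 was lowest for class II and also for pan-leukocyte (10.57), dendritic cell (7.29), macrophage (10.71) and fibroblast markers (9.02). The top of the macrophage list differed from that of class II. ATC replicate 2 was at 10.85 there, above replicate 3 alone, and replicate 1, at −0.55 for class II, was highest at 11.362. In PTC the lists went different ways. PTC replicate 5 was highest for all 5 class II members and for thyroid follicular markers (8.93). It was lowest for pan-leukocyte (10.46), macrophage (8.87) and T and NK cell markers (6.81). Its dendritic cell mean (7.9695) was just under the highest of PTC, 7.972 in replicate 3. PTC replicate 1, lowest for class II, was not lowest for dendritic cell markers (7.917, against 7.807 in replicate 4). PTC replicate 2, with the highest B cell list (7.94), was in the upper part of the class II range but not at its top. The part of these cell types in the MHC values was not tested.

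**Figure D5:**
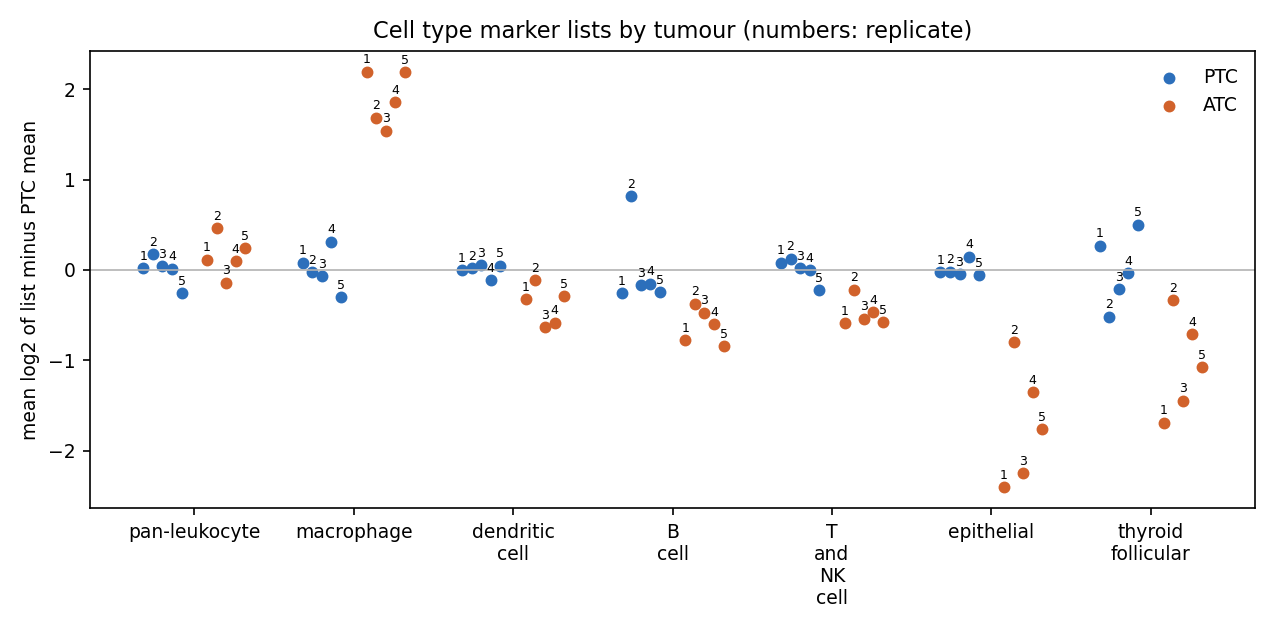
Mean log2 intensity of 7 cell type marker lists in each tumour, less its mean over the 5 PTC tumours; points are tumours (PTC blue, ATC orange), numbered by replicate. Macrophage markers of all ATC tumours lie above PTC, epithelial markers of all ATC tumours lie below, and pan-leukocyte markers overlap.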

How the data were processed

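RNA of each tumour was labelled with biotin by an Affymetrix whole-transcript kit, per the labels' protocols. Affymetrix Power Tools and limma stand in the submitters' processing notes, with no role; how the authors corrected and normalized signal is not given in the sources used here. Their deposited table, 35556 probe sets on 10 arrays, was read as normalized log2 intensities from its range, without detection calls. Platform annotation gave 1 symbol to 21789 probe sets, several to 1621 and none here to 12146. That left 19938 genes, each at its brightest probe set. The difference between the groups was estimated by lmFit, followed by eBayes (limma 3.58.1, R 4.3.3), with no covariate and no filter. In simulated data for this comparison over 19938 genes the fit recovered 2% of 50 genes changed by 0.3 log2 units, 62% at 0.5, 86% at 1 and 96% at 2. Of its calls 4.65% were false. No other genes were changed, and 129 were called, against 4234 in the data. The adjustment was therefore stricter in the simulation, and these shares are not the recovery in the data. Alternatives were a replicate block, 2 dim filters, probe set means, all probe sets, renormalization, median centring, variance trend, array weights and each array left out. Members and lists were chosen with earlier results of these data known. Named genes were the members, list genes past the threshold or among the 3 largest differences of their list, a few fixed names, and the 5 genes most like B2m and Cd74. Listed names were matched by symbol or RefSeq synonym (March1, March8 and H2-Ea-ps under current names). Tables and figures used Python 3.11.15 with pandas 2.3.3 and matplotlib 3.10.9.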

Additional observations from a re-analysis of the deposited data

How the results depend on the processing

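Among the 10 members, the 2 calls held in all 9 other settings that kept every array, and 0 differences changed sign in any fit. With each array left out in turn, the count of class I members called ran from 1 to 2 and that of class II from 0 to 1, as given beside Tap1, Tapbp and Ciita. The median class I difference was −0.24 with genes below the median level left out, because Tap2 drops out there. The replicate block left 2 class I and 0 class II calls and the contrast of the classes at −0.11, and it brought H2-Ob past the threshold (adjusted p = 0.0402) and ended the Calr call (adjusted p = 0.0766); deviations of same-numbered tumours correlated at −0.086 to 0.12, and 2 of 10 tumours correlated best with their own number, so the numbers do not pair the samples. Differences near 0 changed sign without passing: H2-Eb1 was 0.040 with array weights and −0.28 to 0.070 with an array left out, H2-Ea −0.35 to 0.021, Ifng −0.020 to 0.024 and Irf1 −0.037 to 0.064, with Irf1 at −0.013 for the mean of its probe sets and −0.018 with quantile normalization once more. Nfya passed without ATC replicate 4 (0.23, adjusted p = 0.0391). The number of arrays limits precision, and the members that did not pass may still differ, as the width of their intervals shows. The simulation cannot say how many such changes were missed here. It changed only 50 genes at each size and called 129, against 4234 called in the data, so its adjusted threshold was stricter.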
